A study of Homo sapiens and Mus musculus with 22 samples.

Results

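The synaptic vesicle and neuronal genes described here are 37 listed symbols, from the vesicle protein synaptophysin (SYP) to the RNA-binding protein CELF3. Their rows were read by symbol from 3 tables of gene read counts, in which mouse symbols have only the first letter capital. The human table of the H69 lines lists all 37 among 25435 genes. The table of the H69EZ fractions lists 36 among 20113, and SYN2 was not analysed there. The mouse table lists all 37 among 24047 genes, so the 3 tables hold 69595 rows in all.

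The samples were 22 RNA libraries of small cell lung cancer lines in 8 groups. NCI-H69 (H69) is a human line with MHC class I given as low or absent, with 3 libraries. H69M is a derivative of H69 made as in an earlier publication that the labels cite, labelled MHC class I high, with 3 libraries. H69M was also sorted into a PD-L1 low or negative fraction, labelled MHC class I low or negative, and a PD-L1 high fraction, labelled high, with 3 libraries each. H69EZ is a derivative of H69 that was exposed to an EZH2 inhibitor for 6 days, cultured on without it, and selected for adherence. H69EZ was sorted on HLA-ABC into low or negative and high fractions, with 2 libraries each. Both fractions share the inhibitor exposure and the adherent selection, and their table holds no H69 library. RPP is the mouse line 631RPP, labelled MHC class I low or negative, and RPP-A is its derivative selected for adherent growth, labelled high, with 3 libraries each. The labels used here give no genotype for RPP. Each derivative is a single line, and nothing says that its libraries came from separate cultures, so p-values measure the spread between libraries, which may be technical.

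Synaptic vesicles store neurotransmitter and fuse with the plasma membrane when calcium enters the nerve ending. A vesicle is tethered by Rab3 proteins and active zone scaffolds, primed by UNC13 and CADPS proteins, and fused by the SNARE proteins VAMP2, SNAP25 and STX1A under the control of complexins and the calcium sensor synaptotagmin. Neuroendocrine cells use much of the same machinery for hormone release, and SYP and UCHL1 are in routine use as markers of neuroendocrine tumours such as small cell lung cancer.

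All 37 genes passed the filter on low counts in the H69 table and the mouse table, as did all 36 in the H69EZ table. Levels are given in CPM, the share of a library's counts that fall on a gene, on library sizes scaled by TMM, which takes most genes as unchanged, and are compared for one gene between groups, not between genes. A gene is said to have risen or fallen where its adjusted p, by edgeR's quasi-likelihood test over all genes of the table, is under 0.05. The libraries are bulk RNA, so fewer cells of a type and less RNA per cell cannot be told apart.

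Library totals were 12814594 to 26834561 counts in the H69 table, 40568796 to 52458228 in the H69EZ table and 10817795 to 19973785 in the mouse table. Replicate libraries differed by 2.28 to 10.9 in chi-square per degree of freedom in the human tables. In the mouse table the RPP library headed EHK_RPP4 and the RPP-A library headed RPPM3 stood apart from their groups, at 29.7 to 39.3, whereas RPPM1 and RPPM2 were close to each other at 1.35, where sampling noise alone gives about 1. B2M, the MHC class I light chain, rose by 3.32 (log2, SE 0.06) in the PD-L1 high over the PD-L1 low fraction, by 2.37 (SE 0.06) in the HLA high over the HLA low fraction and by 4.92 (SE 0.20) in RPP-A over RPP. It rose by 0.80 (SE 0.05) in H69M over H69. Of 7 neuroendocrine markers (INSM1, CHGA, NCAM1, GRP, DLL3, EPCAM and NEUROD1), all 7 fell in the PD-L1 high fraction and in RPP-A. NEUROD1 was near the floor between the PD-L1 fractions, with 4 counts in PD-L1 low and 0 in PD-L1 high libraries. These libraries overlapped, at -3.61 (SE 1.55, adjusted p = 0.0413). In the HLA high fraction 5 of 6 tested fell and NCAM1 did not pass (0.09, adjusted p = 0.146), and in H69M over H69 4 fell and 2 rose (CHGA by 0.31 and DLL3 by 0.91).

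Promoter sequences of 29 of the 37 genes were found in RefSeq (GRCh38.p14, 250 bases before to 50 after the start). They are shown for 4 genes: SYN1 and UNC13A, the only genes of the 29 with the RE1 letters TTCAGCACC, and SNAP91 and RIMS1, whose values moved most in opposite directions between the PD-L1 fractions. RE1 is the element that the repressor REST binds. Capitals mark matches on either strand to TTCAGCACC (left part of RE1), GGACAGC (right part of RE1), CAGATG (an E-box of the kind that NEUROD1 binds), TGACGTCA (cAMP response element) and TATAAA (the core promoter site of TBP). The windows lie at chrX:47619808-47620107 on the minus strand, chr19:17688305-17688604 on the minus strand, chr6:83709052-83709351 on the minus strand and chr6:71886300-71886599 on the plus strand, and each is printed in the direction of its gene.
SYN1: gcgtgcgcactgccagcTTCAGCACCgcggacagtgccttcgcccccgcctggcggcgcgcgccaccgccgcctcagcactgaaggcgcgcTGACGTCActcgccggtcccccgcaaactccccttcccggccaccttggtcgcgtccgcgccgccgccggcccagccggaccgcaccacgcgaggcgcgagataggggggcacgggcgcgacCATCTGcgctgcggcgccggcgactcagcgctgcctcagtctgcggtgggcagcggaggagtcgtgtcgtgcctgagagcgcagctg
UNC13A: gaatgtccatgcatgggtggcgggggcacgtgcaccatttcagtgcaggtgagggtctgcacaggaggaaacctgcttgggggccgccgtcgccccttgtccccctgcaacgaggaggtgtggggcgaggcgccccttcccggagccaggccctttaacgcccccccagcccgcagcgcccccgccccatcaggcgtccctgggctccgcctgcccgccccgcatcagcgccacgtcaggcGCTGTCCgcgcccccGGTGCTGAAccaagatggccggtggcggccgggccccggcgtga
SNAP91: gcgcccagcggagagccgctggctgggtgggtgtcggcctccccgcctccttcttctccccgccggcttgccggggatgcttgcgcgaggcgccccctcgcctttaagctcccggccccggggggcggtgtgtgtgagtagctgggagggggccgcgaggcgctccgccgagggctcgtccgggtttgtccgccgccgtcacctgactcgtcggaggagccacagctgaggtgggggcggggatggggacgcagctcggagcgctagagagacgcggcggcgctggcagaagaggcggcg
RIMS1: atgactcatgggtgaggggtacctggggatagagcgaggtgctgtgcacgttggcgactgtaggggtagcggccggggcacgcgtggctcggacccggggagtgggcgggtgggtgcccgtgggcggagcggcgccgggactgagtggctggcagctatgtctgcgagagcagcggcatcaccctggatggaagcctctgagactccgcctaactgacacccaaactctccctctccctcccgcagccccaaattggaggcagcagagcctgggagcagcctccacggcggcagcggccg

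SYN1 held TTCAGCACC 233 bases before its start, TGACGTCA 159 bases before it and the reverse complement of CAGATG 37 bases before it. Shortly after TTCAGCACC the SYN1 window reads GGACAGT, which differs from the searched GGACAGC only in its last letter and is therefore not marked. The search thus does not show that SYN1 lacks a right part of RE1. UNC13A held the reverse complements of GGACAGC, 9 bases before its start, and of TTCAGCACC, 7 bases after it. None of the letters searched is in the SNAP91 or the RIMS1 window. The 9 letters TTCAGCACC were in 2 of 29 promoters (6.9%), against 0.403% of all 27305. GGACAGC was in 5 of 29 (17.2%; BSN, GAP43, RAB3C, SYNJ1 and UNC13A), against 6.11% of all. CAGATG was in 17.2% against 14.8% of all, TGACGTCA in 3.45% against 1.98%, and TATAAA in 3.45% against 12%. A match describes the letters only, and no binding was measured. The median GC content of the 29 windows was 63.3%, against 58.3% for all promoters.

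The first question was how the MHC class I high populations differed from the low ones. In the PD-L1 high over the PD-L1 low fraction of H69M, 33 of the 37 genes fell, 2 rose (RIMS1 and AMPH) and 2 did not pass the test (DNAJC5 and GAP43). Over the whole table, 39.4% of 15445 genes fell and 39.0% rose. The median log2 fold change of the 37 genes was -1.35, against 0.00 over all genes. At least 2-fold falls were seen in 24 of the 37, and in 2624 of all 15445 genes. In the HLA high over the HLA low fraction of H69EZ, 32 of 36 fell, 2 rose (DNAJC5 and STMN3) and 2 did not pass (RAB3B and RIMS1), where 40.2% of 14819 genes fell and 41.1% rose. The median of the 36 was -1.82, against 0.00 over all genes, and 24 fell at least 2-fold, as did 2195 of all 14819. With 2 libraries a group, calls in H69EZ rest on a spread pooled over genes.

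In RPP-A over RPP, 34 of the 37 mouse genes fell, none rose and 3 did not pass the test (Stx1a, Dnajc5 and Gap43). Of 14032 mouse genes, 40.6% fell and 37.6% rose. The median of the 37 was -5.75, against -0.04 over all genes, and 33 fell at least 2-fold, as did 3798 of all 14032. With library totals in place of TMM the median of all mouse genes was -0.40, the genes that fell made up 64.8% of those called instead of 51.9%, and Dnajc5 then fell, by 0.30 (adjusted p = 0.0198). In H69M over H69, 21 of the 37 genes fell, 13 rose and 3 did not pass, with a median of -0.20, where 36.6% of all genes fell and 35.9% rose. The falls were broad in both sorts and in the mouse pair, and unsorted H69M had both rises and falls. There were 12 genes that rose in H69M over H69 and fell in the PD-L1 high over the PD-L1 low fraction: SYN1, VAMP2, SYT5, SYT11, SV2A, RAB3B, RIMS2, CADPS, SYNGR3, STMN2, ELAVL3 and UCHL1. The share of all genes with this pattern was not counted.

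29 of the 36 genes present in all 3 tables fell in both sorts and in RPP-A. Of these, 15 also fell in H69M over H69: SYP, SNAP25, SYT1, SYT4, SYT7, SV2B, RAB3C, UNC13A, CPLX1, CPLX2, SNAP91, BSN, PCLO, ELAVL4 and CELF3. How many of all genes had either pattern was not counted. The RAB3C call in H69M (-0.18, SE 0.06, adjusted p = 0.0195) was lost without H69M replicate 1 (-0.14, adjusted p = 0.0949). The SYP call there was lost without H69 replicate 3 (-0.12, adjusted p = 0.0940). Among the 29, SYNJ1 was lost in the PD-L1 sort by the DESeq2 test (-0.17, adjusted p = 0.0553). Stmn2 was lost in RPP-A without EHK_RPP4 (-0.43, adjusted p = 0.0859). RIMS1, AMPH, DNAJC5 and STMN3 each rose in one sort, and GAP43, STX1A and RAB3B each failed the test in one or more of the 3 comparisons.

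**Figure D1:**
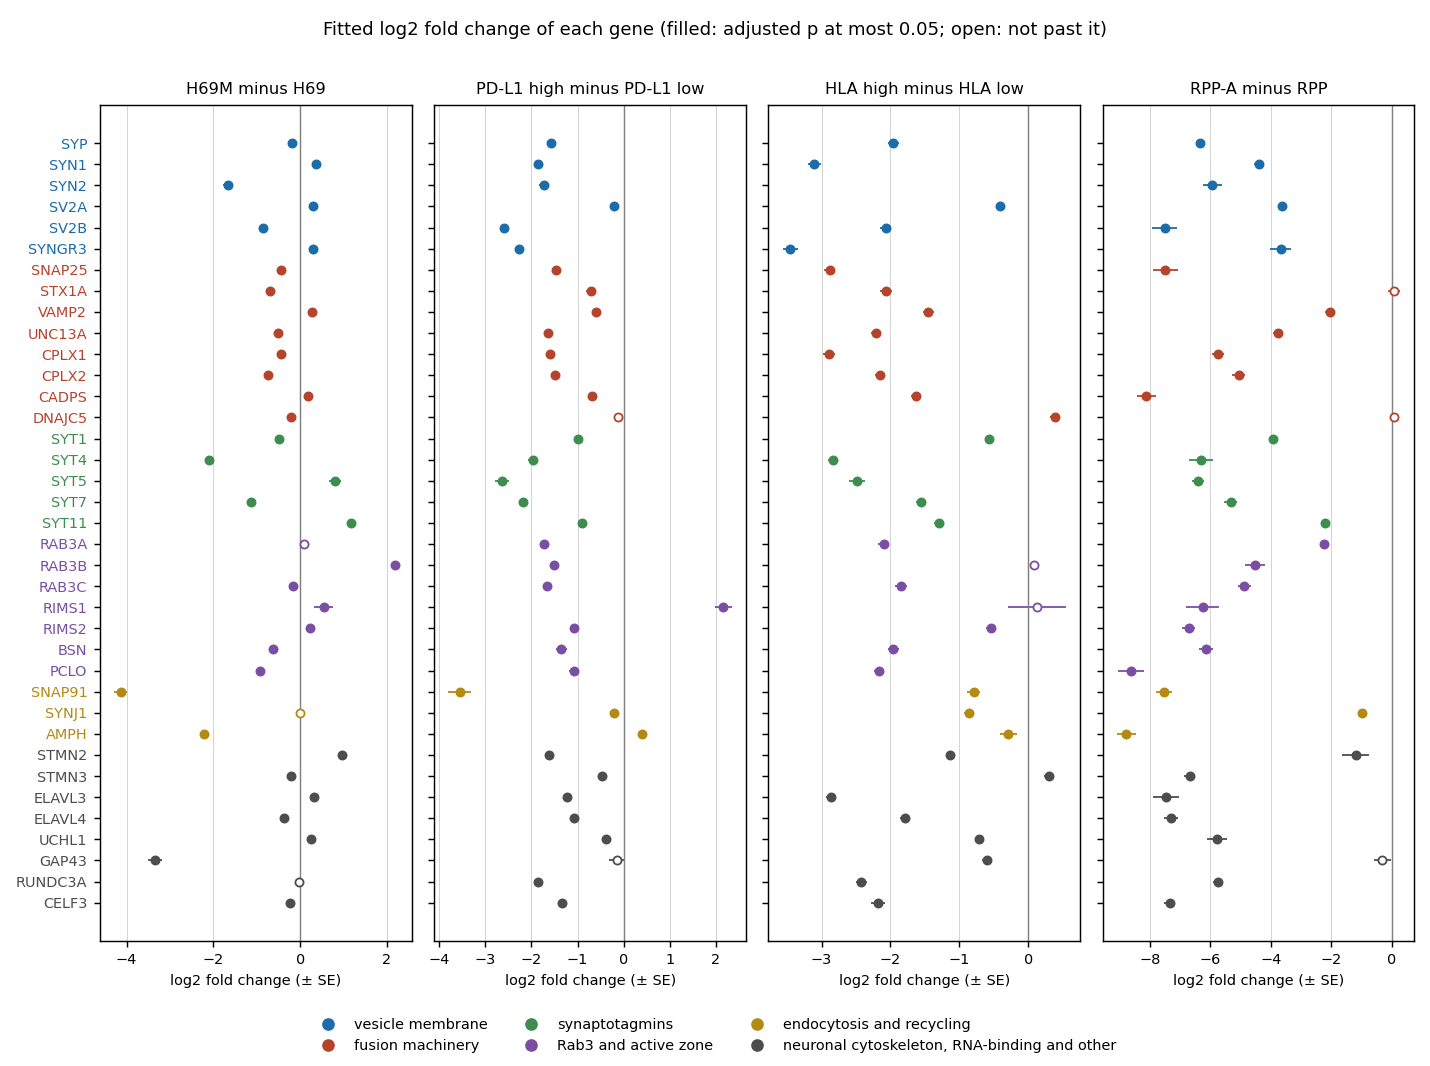
Fitted log2 fold change of each gene (x axis, ± SE) in 4 comparisons, by role (colour), with filled points past the test. In the panels of the PD-L1 sort, the HLA sort and RPP-A most points lie left of 0 (33 of 37, 32 of 36 and 34 of 37 fell), whereas that of H69M over H69 has 21 falls and 13 rises.

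Markers of other cell states and types moved with these comparisons, and their part in the results was not tested. Of 8 fibroblast and stromal markers, 7 rose in the PD-L1 high fraction, where their summed level was 11200 to 11400 CPM against 269 to 365 CPM in the PD-L1 low fraction. The sum was 16400 to 17800 against 109 to 112 CPM between the HLA fractions and 22600 to 30200 against 82.4 to 440.0 CPM in RPP-A and RPP, with 7 of 8 rising and THY1 falling in each. All 8 rose in H69M over H69, where the sum was 2510 to 2800 against 156 CPM, and all 8 rose in the PD-L1 low fraction over H69. All 6 non-neuroendocrine markers (REST, YAP1, VIM, AXL, CD44 and MYC) rose in H69M over H69, with sums of 753 to 771 against 84.0 to 95.4 CPM. All 6 also rose in the PD-L1 high fraction, the HLA high fraction and RPP-A, with sums of 2690 to 2790 against 59.2 to 85.8 CPM, 2130 to 2170 against 38.1 to 38.2 CPM and 4220 to 4500 against 41.8 to 167.0 CPM. In the same 3 comparisons the 7 neuroendocrine markers summed to 991 to 1030 against 3390 to 3570 CPM, 623 to 633 against 1990 to 2010 CPM and 147 to 185 against 1660 to 1950 CPM. In the human lines 8 leukocyte markers summed to at most 9.13 CPM, with CD3E and MS4A1 at 0 in all libraries, and 4 endothelial markers to at most 6.05 CPM. Glial and Schwann markers summed to 35.1 to 68.6 CPM in the human lines, with SOX10 at 0 in H69, unsorted H69M and the PD-L1 high fraction. In the mouse lines leukocyte markers summed to 32.5 to 36.4 CPM in RPP-A against 2.28 to 3.19 CPM in RPP, with Cd3e and Ms4a1 at 0. Cd14 alone was at 30.3 to 34.1 CPM in RPP-A against 0.0693 to 0.571 CPM in RPP. Ptprc had 0 counts in RPP-A, and Cd68 did not pass the test (-0.10, adjusted p = 0.795). Mouse glial markers summed to 5.56 to 7.11 against 207 to 236 CPM, and endothelial markers to 2.12 to 3.33 against 39.5 to 46.8 CPM. In RPP these sums were mostly Mbp (mean 222 CPM) and Vwf (mean 41.5 CPM), which were at 4.52 and 1.29 CPM in RPP-A. REST, which silences neuronal genes in other tissues, was at 42.9 to 50.4 CPM in the PD-L1 high fraction, 9.30 to 10.4 CPM in unsorted H69M, 0.605 to 1.16 CPM in the PD-L1 low fraction and 0 to 0.0378 CPM in H69.

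Among proteins of the vesicle membrane, SYP, SYN1, SYN2, SV2A, SV2B and SYNGR3, all 6 fell in the PD-L1 high fraction and in RPP-A, as did the 5 analysed in the HLA high fraction. SYP, an integral protein of the vesicle membrane, was at 136, 129 and 156 CPM in H69 and at 120.0, 131 and 114 CPM in H69M. It was at 153, 136 and 142 CPM in the PD-L1 low and at 46.7, 50 and 46.8 CPM in the PD-L1 high fraction. The H69 and H69M libraries overlapped, while each PD-L1 high library was far below every PD-L1 low library. The fitted log2 fold change was -0.20 (SE 0.07, adjusted p = 0.0140) in H69M over H69 and -1.58 (SE 0.07, adjusted p = 6.62e-14) between the fractions. Without H69 replicate 3 the H69M value was -0.12 (adjusted p = 0.0940), so that call rested on single libraries. SYP was at 92.5 and 95.7 CPM in HLA low and at 26.2 and 22.2 CPM in HLA high cells, a change of -1.96 (SE 0.07). Mouse Syp was at 182, 211 and 203 CPM in RPP and at 2.17, 2.70 and 2.50 CPM in RPP-A, a change of -6.33 (SE 0.13, adjusted p = 1.21e-07), with no overlap in either pair.

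SYN1, a phosphoprotein that ties vesicles into the reserve pool, showed opposite changes in the derivative and in its high fraction. It was at 30.5, 26.4 and 35.03 CPM in H69, 37.1, 41.1 and 38.6 in H69M, 61.4, 49.4 and 59.96 in the PD-L1 low and 14.8, 16.7 and 15.8 in the PD-L1 high fraction. It rose by 0.36 (SE 0.09, adjusted p = 0.00170) in H69M over H69 and fell between the fractions, at -1.85 (SE 0.10, adjusted p = 8.57e-13). In H69EZ it was at 40.4 and 37.5 CPM in HLA low and 4.91 and 4.09 in HLA high cells, at -3.10 (SE 0.10) the second largest fall of the genes there. Mouse Syn1 was at 134, 109.9 and 102 CPM in RPP and 4.68, 5.22 and 6.43 in RPP-A, at -4.40 (SE 0.17, adjusted p = 3.59e-07). In all 3 pairs of low and high groups no library of one group reached the other. The paralogue SYN2 fell in H69M, at -1.67 (SE 0.10, adjusted p = 4.00e-12), from 14.9, 14.96 and 14.9 to 4.27, 4.68 and 5.05 CPM.

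SV2A, a vesicle glycoprotein and the target of the drug levetiracetam, changed least of this group in the 3 pairs of low and high populations. It was at 82.9, 84.2 and 87.9 CPM in H69, 98.9, 109 and 107 in H69M, 143, 135 and 141 in the PD-L1 low and 122, 123 and 115 in the PD-L1 high fraction. Both fractions lay above every H69 library. SV2A rose by 0.30 (SE 0.05, adjusted p = 3.69e-05) in H69M and fell between the fractions, at -0.22 (SE 0.05, adjusted p = 0.000892). It was at 119 and 125 CPM in HLA low and 96.1 and 88.04 in HLA high cells, at -0.41 (SE 0.07). In the mouse pair it was at 48.04, 49.9 and 50.1 CPM in RPP and 3.86, 3.73 and 4.37 in RPP-A, at -3.63 (SE 0.11, adjusted p = 1.96e-07). Its paralogue SV2B was at 140.3, 135 and 138 CPM in the PD-L1 low and 23.9, 22.97 and 20.7 in the PD-L1 high fraction, at -2.61 (SE 0.07, adjusted p = 3.34e-18) one of the 3 largest falls of the sort. SYNGR3, the neuronal synaptogyrin, was at 28.05 and 27.9 CPM in HLA low and 2.50 and 2.61 in HLA high cells, at -3.45 (SE 0.11) the largest fall there.

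Of the fusion machinery (SNAP25, STX1A, VAMP2, UNC13A, CPLX1, CPLX2, CADPS and DNAJC5), 7 of 8 fell in each human sort and 6 of 8 in RPP-A. SNAP25, the plasma membrane SNARE, was at 99.04, 103 and 89.3 CPM in H69, 74.97, 64.4 and 74.3 in H69M, 112, 125 and 106 in the PD-L1 low and 41.7, 39.6 and 42.6 in the PD-L1 high fraction. It fell in H69M, at -0.45 (SE 0.07, adjusted p = 1.05e-05), and between the fractions, at -1.48 (SE 0.07, adjusted p = 2.81e-13). The PD-L1 low libraries lay above all those of H69 (0.24, SE 0.07, adjusted p = 0.00478) and the PD-L1 high libraries below them. SNAP25 was at 85.6 and 85.8 CPM in HLA low and 11.2 and 12.1 in HLA high cells, at -2.88 (SE 0.08). Mouse Snap25 was at 49.02, 60.05 and 62.03 CPM in RPP and 0, 0.631 and 0.250 in RPP-A, at -7.49 (SE 0.42, adjusted p = 1.85e-06), with 1 RPP-A library at 0.

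STX1A, the plasma membrane syntaxin, was the one SNARE of the 3 that did not change detectably in the mouse. It was at 102, 87.7 and 79.2 CPM in H69, 56.4, 55.3 and 54.2 in H69M, 68.2, 69.1 and 78.2 in the PD-L1 low and 37.7, 43.5 and 50.7 in the PD-L1 high fraction. STX1A fell in H69M, at -0.70 (SE 0.09, adjusted p = 7.16e-07), and between the fractions, at -0.71 (SE 0.09, adjusted p = 8.21e-07), both pairs without overlap. In H69EZ it was at 37.7 and 38.6 CPM in HLA low and 9.75 and 8.39 CPM in HLA high libraries, at -2.06 (SE 0.09). Mouse Stx1a was at 17.9, 11.3 and 11.3 CPM in RPP and 14.2, 15.3 and 12.9 in RPP-A, which overlapped, at 0.07 (SE 0.20, adjusted p = 0.75). Without the library EHK_RPP4, the highest RPP value, it was higher in RPP-A by 0.37 (adjusted p = 0.0273).

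VAMP2, the vesicle SNARE, was at 42.3, 41.9 and 44.6 CPM in H69, 51.5, 52.8 and 49.8 in H69M, 69.5, 65.1 and 68.5 in the PD-L1 low and 38.7, 44.1 and 51.8 in the PD-L1 high fraction. It rose in H69M, at 0.26 (SE 0.08, adjusted p = 0.00456), and fell between the fractions, at -0.60 (SE 0.08, adjusted p = 4.67e-07), while the PD-L1 high libraries overlapped those of H69. VAMP2 was at 51.7 and 51.4 CPM in HLA low and 18.6 and 19.2 in HLA high cells, at -1.45 (SE 0.08). Mouse Vamp2 was at 274, 298 and 270.3 CPM in RPP and 58.4, 63.6 and 80.5 in RPP-A, at -2.06 (SE 0.14, adjusted p = 5.10e-06).

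UNC13A, which primes vesicles for fusion, fell in every one of the 4 comparisons. It was at 123, 114 and 124 CPM in H69, 73.5, 87.6 and 90.9 in H69M, 103, 90.7 and 113 in the PD-L1 low and 33.1, 34.1 and 31.1 in the PD-L1 high fraction, at -0.52 (SE 0.08, adjusted p = 6.19e-06) in H69M and -1.64 (SE 0.09, adjusted p = 4.46e-13) between the fractions. The HLA fractions held 161 and 175 CPM in HLA low and 37.7 and 34.8 CPM in HLA high libraries, at -2.21 (SE 0.07). RPP held 172, 145 and 137 CPM and RPP-A 13.1, 11.4 and 8.81 CPM, at -3.77 (SE 0.17, adjusted p = 7.05e-07). No library of the lower group reached the higher one in these 4 pairs.

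CPLX2, a complexin that clamps the assembled SNAREs, was at 585, 572 and 626 CPM in H69, 343, 368 and 359.7 in H69M, 408, 378 and 384 in the PD-L1 low and 138, 144 and 137 in the PD-L1 high fraction. It fell in H69M, at -0.74 (SE 0.05, adjusted p = 7.34e-11), and between the fractions, at -1.48 (SE 0.05, adjusted p = 8.30e-16), and all H69M libraries lay below all H69 libraries. CPLX2 was at 347 and 341 CPM in HLA low and 79.3 and 75.3 in HLA high cells, at -2.15 (SE 0.07). Cplx2 was at 595, 774 and 685 CPM in RPP and 23.1, 22.9 and 15.4 in RPP-A, at -5.06 (SE 0.21, adjusted p = 5.15e-07). The paralogue CPLX1 was among the 3 largest falls in the HLA high fraction, from 59.3 and 57.8 to 8.17 and 7.61 CPM (-2.89, SE 0.09).

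CADPS, which primes dense-core vesicles, rose slightly in H69M (0.18, SE 0.05, adjusted p = 0.00536) and fell between the fractions (-0.68, SE 0.06, adjusted p = 8.24e-10). Mouse Cadps, at 50.7, 62.3 and 67.1 CPM in RPP and 0.136, 0.402 and 0.0625 in RPP-A, had one of the 3 largest mouse falls, at -8.12 (SE 0.32, adjusted p = 4.02e-07). DNAJC5, the vesicle chaperone cysteine string protein, went the other way in one sort. It was at 65.7 and 62.4 CPM in HLA low and 86.4 and 80.2 in HLA high cells, a rise of 0.38 (SE 0.07, adjusted p = 4.82e-08) without overlap. Between the PD-L1 fractions it was at 94.6, 86.98 and 90.3 CPM in PD-L1 low and 92.5, 81.1 and 76.7 CPM in PD-L1 high libraries, which overlapped, at -0.12 (SE 0.07, adjusted p = 0.116), though without the first PD-L1 high library it fell, at -0.23 (adjusted p = 0.00373). The mouse values, 167, 164 and 167 CPM in RPP and 183, 182 and 156 in RPP-A, overlapped as well (0.06, SE 0.10, adjusted p = 0.560).

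Synaptotagmins are membrane proteins, several of which sense calcium to trigger fusion. All 5 (SYT1, SYT4, SYT5, SYT7 and SYT11) fell in both sorts and in RPP-A. SYT1, the fast calcium sensor, was at 183, 192 and 185 CPM in H69, 130.4, 135 and 135 in H69M, 164, 160.4 and 157 in the PD-L1 low and 83.6, 80.6 and 77.9 in the PD-L1 high fraction. These 4 groups did not overlap, in the order H69, PD-L1 low, unsorted H69M, PD-L1 high. It fell in H69M, at -0.48 (SE 0.05, adjusted p = 1.44e-08), and between the fractions, at -0.99 (SE 0.05, adjusted p = 1.76e-13). In H69EZ SYT1 was at 99.5 and 98.5 CPM in HLA low and 63.8 and 69.98 CPM in HLA high libraries, at -0.57 (SE 0.07) the smallest fall of the family there. In the mouse it was at 168, 216 and 192 CPM in RPP and 12.5, 11.5 and 13.7 in RPP-A, at -3.93 (SE 0.14, adjusted p = 2.47e-07).

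SYT4, a synaptotagmin found on dense-core vesicles, fell in every H69M population. It was at 232, 263 and 241 CPM in H69, 63.8, 51.6 and 57.3 in H69M, 92.8, 109.7 and 95.04 in the PD-L1 low and 29.5, 21.8 and 24.3 in the PD-L1 high fraction. The changes were -2.09 (SE 0.09, adjusted p = 3.23e-14) in H69M and -1.97 (SE 0.10, adjusted p = 2.27e-13) between the fractions, and against H69 the high fraction was at -3.28 (SE 0.10, adjusted p = 3.92e-17). SYT4 was at 179 and 173 CPM in HLA low and 23.6 and 25.96 in HLA high cells, at -2.83 (SE 0.07). Syt4 was at 8.97, 15.6 and 17.02 CPM in RPP and 0.203, 0.172 and 0.125 in RPP-A, at -6.32 (SE 0.40, adjusted p = 3.84e-06).

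SYT11, which does not bind calcium, and SYT5 rose in H69M and in the PD-L1 low fraction over H69, where SYT4 fell. SYT11 was at 62.6, 64.1 and 59 CPM in H69, 144, 138 and 139 in H69M, 174, 174 and 172 in the PD-L1 low and 92.7, 95.5 and 91.8 in the PD-L1 high fraction. Every H69M population lay above H69, at 1.18 (SE 0.05, adjusted p = 2.27e-14) unsorted, and SYT11 still fell between the fractions, at -0.89 (SE 0.05, adjusted p = 8.03e-13). It was at 159 and 162 CPM in HLA low and 69.3 and 61.01 in HLA high cells (-1.30, SE 0.07), and at 236, 266 and 259 CPM in RPP against 59.1, 60.1 and 46.3 in RPP-A (-2.20, SE 0.13, adjusted p = 2.43e-06). SYT5 was at 3.86, 3.29 and 4.04 CPM in H69, 13.5, 11.5 and 14.3 in the PD-L1 low and 2.06, 2.24 and 1.90 in the PD-L1 high fraction, so that the low fraction lay above H69 (1.83, SE 0.13, adjusted p = 1.57e-10) and the high fraction below it (-0.82, SE 0.18, adjusted p = 0.000459). Between the fractions SYT5 changed by -2.64 (SE 0.15, adjusted p = 2.21e-12). SYT7, a slower sensor, fell in H69M (-1.13), the PD-L1 sort (-2.17), the HLA sort (-1.55) and RPP-A (-5.33, log2 fold changes).

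**Figure D2:**
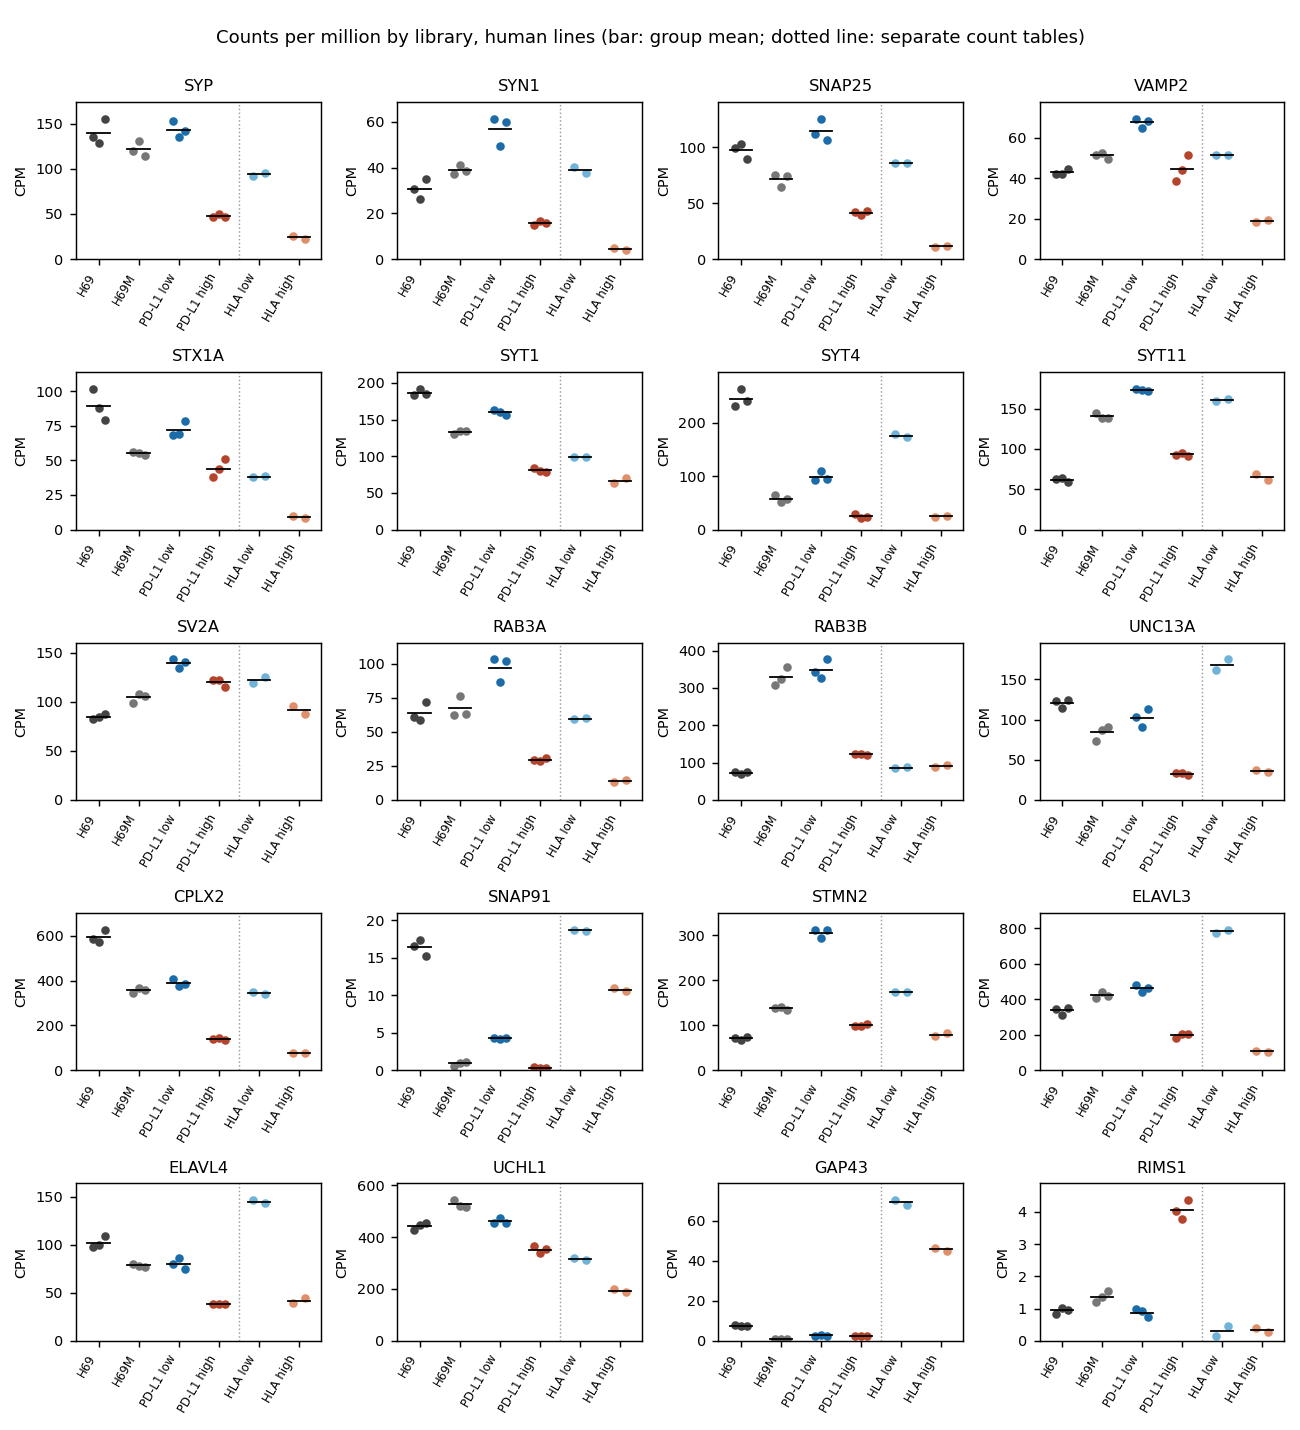
CPM of 20 genes (y axis, from 0) in each human library by group (x axis), with group means as bars. SYT4 and CPLX2 are highest in H69, STMN2 and SYT11 are highest in the PD-L1 low fraction within the H69 table, and RIMS1 is highest in the PD-L1 high fraction.

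Rab3 proteins sit on docked vesicles, and RIMS, BSN (Bassoon) and PCLO (Piccolo) scaffold the active zone. Of these 7 genes 6 fell and RIMS1 rose between the PD-L1 fractions, 5 fell in the HLA high fraction, and all 7 fell in RPP-A. RAB3A was at 60.97, 58.7 and 71.99 CPM in H69, 62.03, 76.3 and 63.3 in H69M, 103, 86.3 and 102 in the PD-L1 low and 29.02, 28.7 and 30.7 in the PD-L1 high fraction. H69 and unsorted H69M overlapped (0.08, SE 0.09, adjusted p = 0.400), and the low and high fractions lay above and below both. RAB3A fell between the PD-L1 fractions, at -1.72 (SE 0.09, adjusted p = 7.07e-13), and between the HLA fractions, at -2.10 (SE 0.08), which held 59.6 and 59.8 CPM in HLA low and 13.5 and 14.5 CPM in HLA high libraries. Rab3a was at 62.4, 55.6 and 53.9 CPM in RPP and 11.1, 11.9 and 13.6 in RPP-A, at -2.23 (SE 0.12, adjusted p = 1.42e-06).

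RAB3B had the largest rise of the 37 genes in H69M. It was at 74.5, 69.1 and 74.2 CPM in H69, 308, 323 and 356 in H69M, 342, 327 and 376 in the PD-L1 low and 123, 122 and 121 in the PD-L1 high fraction. RAB3B rose by 2.18 (SE 0.06, adjusted p = 7.32e-17) in H69M, and even the high fraction, which lay below the low one (-1.51, SE 0.06, adjusted p = 7.88e-15), was above H69 (0.75, SE 0.06, adjusted p = 1.13e-09). In H69EZ it was at 85.1 and 87.8 CPM in HLA low and 88.9 and 94.9 CPM in HLA high libraries, which did not overlap but did not pass the test (0.09, SE 0.07, adjusted p = 0.214). Without the first HLA high library it passed, at 0.14 (adjusted p = 0.00362). Mouse Rab3b was at 66.9, 56.4 and 59.6 CPM in RPP and 1.42, 2.07 and 4.43 in RPP-A, at -4.52 (SE 0.33, adjusted p = 7.57e-06). RAB3C fell in both sorts, at -1.67 and -1.85 (log2 fold changes).

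RIMS1, a scaffold that binds Rab3 and UNC13, rose between the PD-L1 fractions, where its paralogue RIMS2 fell. It was at 0.845, 1.02 and 0.969 CPM in H69, 1.21, 1.34 and 1.53 in H69M, 0.975, 0.930 and 0.723 in the PD-L1 low and 4.01, 3.79 and 4.36 in the PD-L1 high fraction. All 3 PD-L1 high libraries lay above the other 9 of the table, at 2.16 (SE 0.19, adjusted p = 1.43e-09) over the low fraction, on counts of 62 to 82 a library against 10 to 22. RIMS2 fell between the same fractions, at -1.08 (SE 0.06, adjusted p = 6.34e-13). The RIMS1 call in H69M over H69 (0.54, SE 0.21, adjusted p = 0.0304) was lost without H69 replicate 1 (0.45, adjusted p = 0.125), without H69M replicate 3 (0.44, adjusted p = 0.141) and by the DESeq2 test (0.56, adjusted p = 0.105). In H69EZ RIMS1 was at 0.158 and 0.464 CPM in HLA low and 0.380 and 0.261 CPM in HLA high libraries, on 8 to 20 counts a library, and overlapped. In RPP-A only 1 count of Rims1 was found over the 3 libraries, against 90 in RPP, an RPP over RPP-A ratio of 106.0 per library size with a 95% counting interval of 18.5 to 4231. BSN fell from 46.4, 40.4 and 53.2 to 16.9, 19.8 and 17.9 CPM between the PD-L1 fractions (-1.35, SE 0.11, adjusted p = 1.24e-09). Pclo was at 272, 158 and 144 CPM in RPP and 0.610, 0.631 and 0.187 in RPP-A, at -8.62 (SE 0.43, adjusted p = 1.03e-06), with the library EHK_RPP4 highest in RPP.

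Endocytosis retrieves vesicle membrane after fusion, and the 3 genes of this step differed in direction. SNAP91, a neuronal clathrin adaptor, was at 16.6, 17.4 and 15.3 CPM in H69, 0.629, 0.995 and 1.15 in H69M, 4.25, 4.23 and 4.27 in the PD-L1 low and 0.489, 0.267 and 0.281 in the PD-L1 high fraction. The 4 groups did not overlap, with H69 highest, and the unsorted libraries lay between the fractions. Its log2 fold changes of -4.14 (SE 0.15, adjusted p = 1.87e-15) in H69M and -3.56 (SE 0.25, adjusted p = 4.40e-11) between the fractions were the largest falls of the 37 genes in each. In the PD-L1 high fraction the values rest on 4 to 10 counts a library. In H69EZ SNAP91 was at 18.7 and 18.6 CPM in HLA low and 10.9 and 10.6 CPM in HLA high libraries, at -0.79 (SE 0.09), and in the mouse it was at 101, 126 and 122 CPM in RPP and 0.949, 0.689 and 0.250 in RPP-A, at -7.53 (SE 0.27, adjusted p = 2.95e-07).

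AMPH (amphiphysin), which bends membrane at clathrin pits, was at 133, 127 and 141 CPM in H69, 28.5, 30.5 and 27.8 in H69M, 41.3, 35.2 and 37.8 in the PD-L1 low and 51.1, 49.9 and 48.96 in the PD-L1 high fraction. H69 was far above every H69M population, at -2.21 (SE 0.06, adjusted p = 7.31e-17) for the unsorted line, while the high fraction lay above the low one by 0.39 (SE 0.07, adjusted p = 1.95e-05). AMPH was at 6.11 and 5.38 CPM in HLA low and 4.85 and 4.54 in HLA high cells, at -0.29 (SE 0.12, adjusted p = 0.0221); without the first HLA low library this was -0.20 (adjusted p = 0.282). In RPP-A only 2 counts of Amph were found, against 901 in RPP, a ratio of RPP over RPP-A of 530.4 with a 95% counting interval of 146.4 to 4386. These intervals cover counting error only. SYNJ1, the phosphatase synaptojanin, did not pass the test in H69M (-0.02, SE 0.07, adjusted p = 0.862) and fell between the PD-L1 fractions (-0.21, SE 0.08, adjusted p = 0.0148; -0.19 without PD-L1 high replicate 2, adjusted p = 0.0583), the HLA fractions (-0.86, SE 0.07) and in RPP-A (-0.99, SE 0.11, adjusted p = 9.81e-05).

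The remaining 8 genes are neuronal but not vesicle proteins. Of these 7 fell in the PD-L1 high fraction, 7 in the HLA high fraction and 7 in RPP-A. STMN2, a microtubule regulator of growing axons, was at 71.6, 66.96 and 73.8 CPM in H69, 139, 142 and 135 in H69M, 312, 294 and 312 in the PD-L1 low and 99.3, 98.5 and 103 in the PD-L1 high fraction. The 4 groups did not overlap and H69 was lowest, so STMN2 rose by 0.97 (SE 0.05, adjusted p = 1.16e-12) in H69M and by 0.50 (SE 0.05, adjusted p = 2.59e-08) in the high fraction over H69, though it fell, at -1.61 (SE 0.05, adjusted p = 1.25e-16), between the fractions. In H69EZ it was at 175 and 173 CPM in HLA low and 76.3 and 82.2 CPM in HLA high libraries (-1.13, SE 0.07). Mouse Stmn2 was at 47.5, 18.1 and 13.9 CPM in RPP and 10.3, 10.04 and 14.2 in RPP-A, which overlapped. Its call there (-1.19, SE 0.45, adjusted p = 0.0392) rested on EHK_RPP4, without which it was -0.43 (adjusted p = 0.0859), and was also lost without any one of the 3 RPP-A libraries. STMN3 rose in the HLA high fraction, from 54.6 and 53.9 to 72.6 and 60.96 CPM (0.30, SE 0.07, adjusted p = 2.64e-05), and fell between the PD-L1 fractions (-0.47, SE 0.05, adjusted p = 4.97e-08) and in RPP-A (-6.68, SE 0.18, adjusted p = 1.49e-07).

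ELAVL3, a neuronal RNA-binding protein of the Hu family, was at 347, 314 and 349.9 CPM in H69, 406, 443 and 419 in H69M, 479, 443 and 463 in the PD-L1 low and 182, 204 and 206 in the PD-L1 high fraction. It rose by 0.33 (SE 0.06, adjusted p = 4.65e-05) in H69M and fell between the fractions, at -1.23 (SE 0.06, adjusted p = 1.28e-13). ELAVL3 was at 774 and 791 CPM in HLA low and 109 and 106 in HLA high cells (-2.86, SE 0.07), and mouse Elavl3 was at 779.8, 688 and 656 CPM in RPP and 4.95, 5.34 and 1.62 in RPP-A (-7.47, SE 0.42, adjusted p = 1.99e-06). ELAVL4, its Hu family relative, fell in all 4 comparisons. It was at 98.2, 99.8 and 109 CPM in H69, 80.2, 78.4 and 77.3 in H69M, 80.2, 86.6 and 74.5 in the PD-L1 low and 38.4, 38.1 and 37.9 in the PD-L1 high fraction, at -0.38 (SE 0.06, adjusted p = 7.94e-06) and -1.08 (SE 0.06, adjusted p = 2.25e-12). It was at 146 and 143 CPM in HLA low and 39.2 and 44.5 CPM in HLA high libraries (-1.79, SE 0.07). In the mouse it was at 189, 263 and 239.8 CPM in RPP and 1.76, 1.66 and 0.937 in RPP-A (-7.30, SE 0.24, adjusted p = 2.20e-07). CELF3, a splicing regulator of neurons, fell in all 4 as well, at -0.24, -1.34, -2.18 and -7.35 (log2 fold changes).

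UCHL1, a neuronal ubiquitin hydrolase, was at 428, 445 and 456 CPM in H69, 542, 522 and 515 in H69M, 456, 472 and 456 in the PD-L1 low and 364, 339.7 and 353 in the PD-L1 high fraction. The unsorted line was above both its fractions and H69, at 0.25 (SE 0.05, adjusted p = 7.86e-05) over H69, and the change between the fractions, -0.39 (SE 0.05, adjusted p = 2.20e-07), was under 2-fold. UCHL1 was at 319 and 312 CPM in HLA low and 199 and 187 in HLA high cells (-0.71, SE 0.06), a fall of less than 2-fold again. Uchl1 was at 370.2, 399 and 462 CPM in RPP and 8.27, 9.93 and 4.12 in RPP-A, at -5.78 (SE 0.32, adjusted p = 1.82e-06). RUNDC3A, a RUN domain protein of neurons, overlapped between H69 and H69M (-0.03, SE 0.06, adjusted p = 0.722) and fell in both sorts (-1.85 and -2.42, log2 fold changes).

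GAP43, the growth cone protein, had the second largest fall of the 37 genes in H69M. It was at 7.85, 7.18 and 7.51 CPM in H69, 0.674, 0.896 and 0.650 in H69M, 2.39, 3.07 and 2.46 in the PD-L1 low and 2.40, 2.56 and 2.18 in the PD-L1 high fraction. It fell in H69M, at -3.35 (SE 0.17, adjusted p = 3.43e-13), below both fractions, and did not pass the test between the fractions (-0.15, SE 0.17, adjusted p = 0.423), whose libraries overlapped. In H69EZ GAP43 was at 70.3 and 68.2 CPM in HLA low and 46.5 and 44.96 CPM in HLA high libraries (-0.60, SE 0.07), levels from a separate table. Gap43 was at 10.8, 9.42 and 10.8 CPM in RPP and 5.62, 7.06 and 12.3 in RPP-A (-0.31, SE 0.28, adjusted p = 0.343), where the library RPPM3 was highest of all 6. Without RPPM3 the Gap43 fold change was -0.69 (adjusted p = 0.0102).

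**Figure D3:**
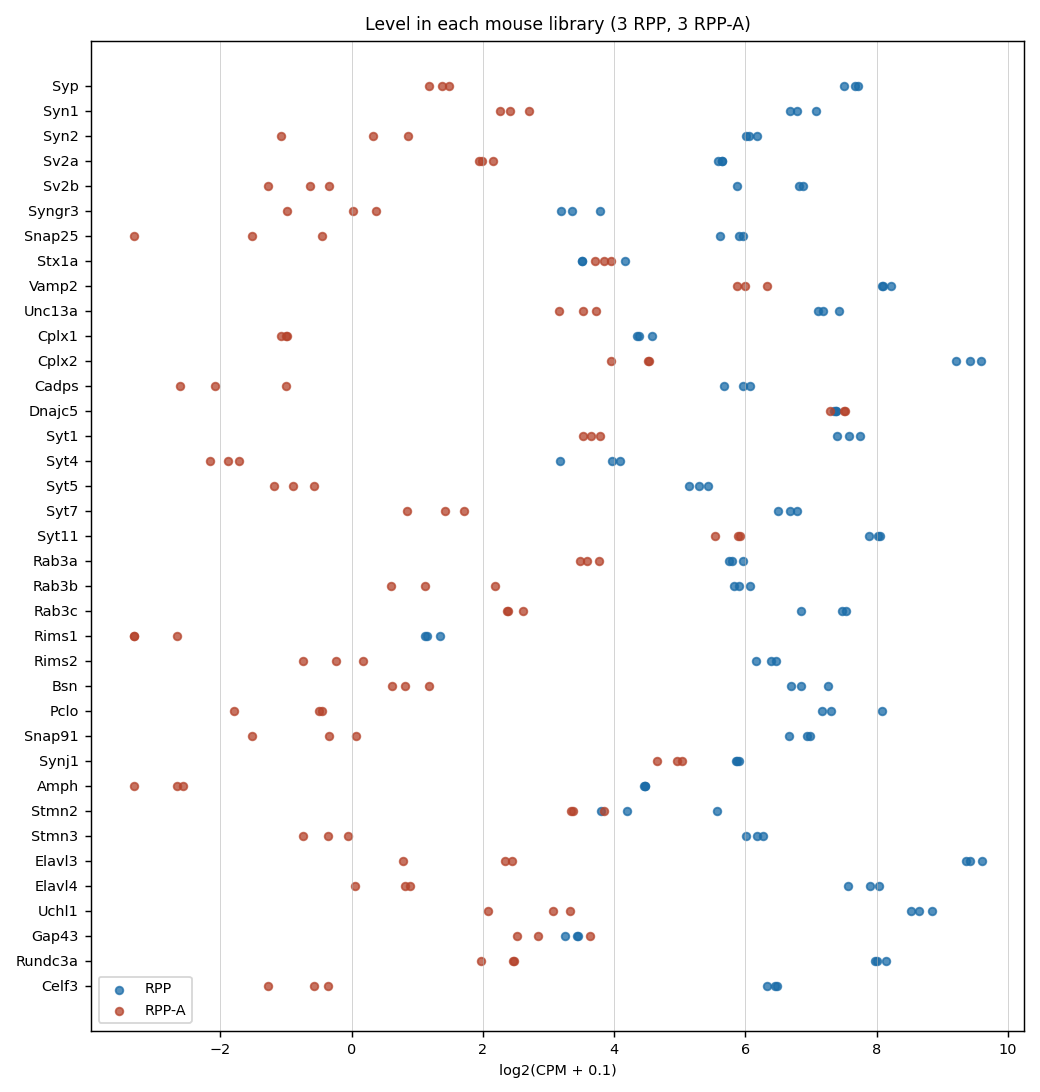
Level of each gene in each mouse library, as log2(CPM + 0.1) (x axis), for 3 RPP and 3 RPP-A libraries. Points of the groups lie apart for most genes and overlap for Stx1a, Dnajc5, Gap43 and Stmn2.

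The fractions were also set against the parent line. Against H69, 16 of 37 rose and 15 fell in the PD-L1 low fraction, with a median of -0.07, where 39.0% of all genes rose and 36.9% fell. In the PD-L1 high fraction 5 rose and 30 fell, with a median of -1.11, where 38.1% of all rose and 39.5% fell. These comparisons and H69M over H69 share the H69 libraries. Several genes lay above H69 in the low and below it in the high fraction. SYN1 was at 0.91 (SE 0.09) and -0.94 (SE 0.10), RAB3A at 0.61 (SE 0.09) and -1.11 (SE 0.09), SYNGR3 at 1.34 (SE 0.07) and -0.93 (SE 0.09), and RUNDC3A at 0.58 (SE 0.06) and -1.27 (SE 0.07). The 5 genes above H69 in the high fraction were SYT11, SV2A, RAB3B, RIMS1 and STMN2. RAB3B rose most in the low fraction over H69, at 2.26 (SE 0.06, adjusted p = 8.16e-17), followed by STMN2 at 2.12 (SE 0.05, adjusted p = 1.15e-17) and SYT5. SNAP91, at -1.96 (SE 0.12, adjusted p = 7.48e-12), AMPH, at -1.81 (SE 0.06, adjusted p = 2.15e-15), and GAP43, at -1.50 (SE 0.13, adjusted p = 3.71e-09), fell most in it.

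For 30 of the 37 genes the unsorted H69M libraries lay between the fractions or overlapped one of them. They lay above both fractions for CADPS, DNAJC5, STMN3 and UCHL1 (4 of 37, against 9.71% of all 15445 genes) and below both for SV2A, AMPH and GAP43 (3 of 37, against 9.94%). The unsorted line was not put through a sort, so a sorting step differs between these libraries too.

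**Figure D4:**
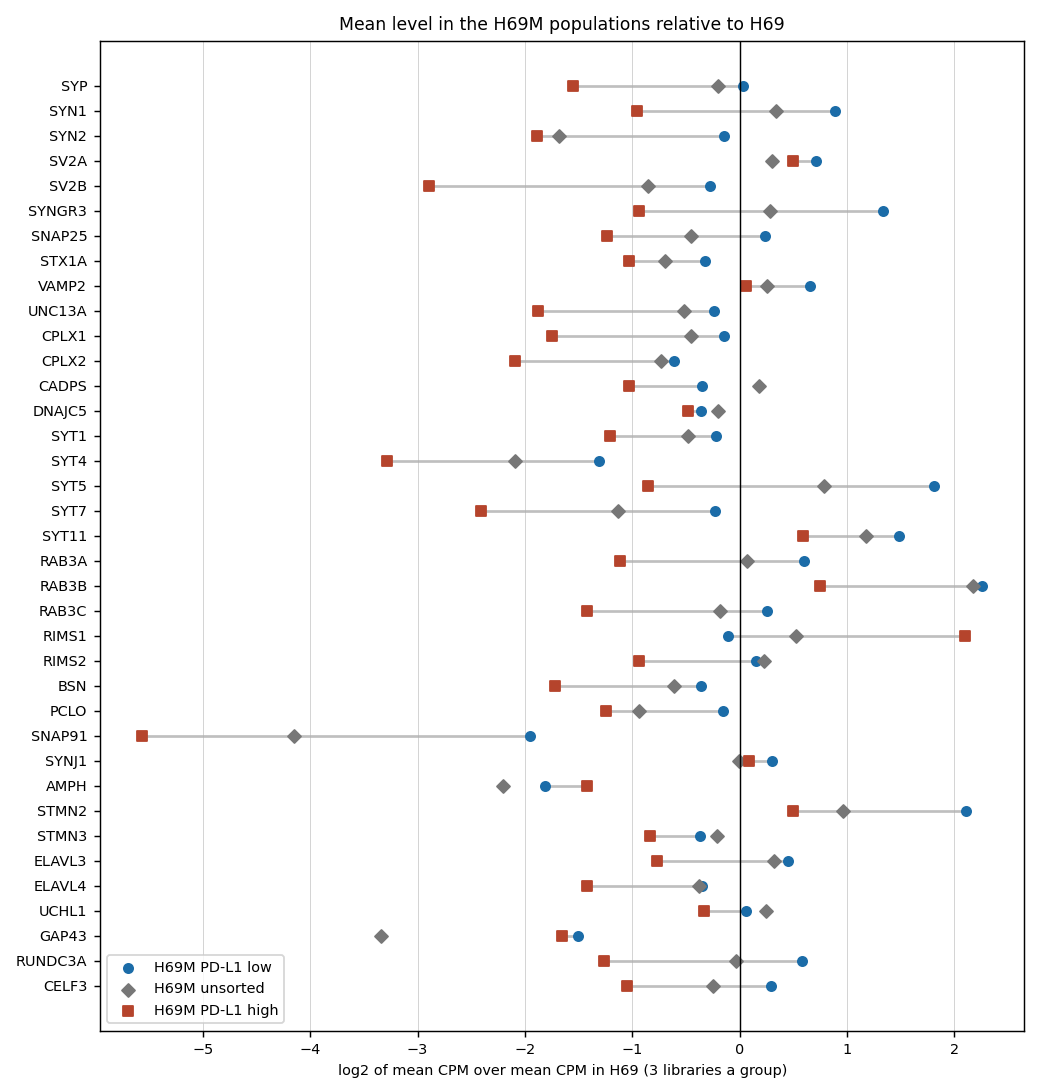
Mean CPM of each gene in the PD-L1 low (circle), unsorted (diamond) and PD-L1 high (square) H69M populations over its mean in H69, on a log2 scale (x axis). Squares lie left of circles for all genes but RIMS1 and AMPH, and for SNAP91 and SYT4 all 3 populations lie left of 0.

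Further presynaptic genes, from a list of vesicle and release proteins outside the 37, mostly fell in the sorts and in RPP-A. Of 54 further presynaptic genes, 33 of 44 tested fell and 5 rose in the PD-L1 high fraction (median -1.0), so that 75% fell against 39.4% of all genes. In the HLA high fraction 31 of 44 fell and 9 rose (median -1.02), or 70.5% against 40.2%, and in RPP-A 43 of 46 fell and 2 rose (median -5.17), or 93.5% against 40.6%. In H69M over H69, 16 of 44 fell and 20 rose (median 0.13), and the 36.4% that fell is the rate over all genes (36.6%). SYT13 had the largest fall between the PD-L1 fractions, at -4.46 (SE 0.36), with RIMS4 next at -2.77 (SE 0.08), and SYT12 the largest rise, at 4.52 (SE 0.23). SYT13 fell in the HLA high fraction too, at -3.92 (SE 0.12), where RIMBP2 fell by 4.05 (SE 0.71) and DNM3 and SYT16 rose by 3.36 (SE 0.14) and 3.22 (SE 0.18). RIMBP2 was near the floor, at a mean of 0.418 CPM in HLA low and 0.0200 CPM in HLA high libraries. In RPP-A Sv2c and Syt9 fell most, Syt9 from a mean of 120.7 to 0.231 CPM, and Dnm1, a dynamin of vesicle scission, rose by 1.47 (SE 0.27, adjusted p = 0.00147), as did Itsn1, by 0.85 (SE 0.16).

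Of 36 further neuronal genes, 27 of 34 tested fell in the PD-L1 high fraction (79.4%, median -1.38), 23 of 33 in the HLA high fraction (69.7%, median -1.37) and 29 of 35 in RPP-A (82.9%, median -6.00), against the same shares of all genes. In H69M over H69, 15 of 34 fell (44.1%, against 36.6% of all) and 13 rose (median -0.05). The largest falls between the PD-L1 fractions were those of RUNDC3B, from a mean of 0.647 to 0.0163 CPM, and RBFOX3, from 2.79 to 0.114 CPM. The largest rises there were those of the neurofilament subunits NEFL, by 2.82 (SE 0.08), and NEFM, by 2.74 (SE 0.40). The NEFM means were low, at 0.145 CPM in the PD-L1 low and 1.09 CPM in the PD-L1 high fraction. In the HLA high fraction NEFM rose by 2.37 (SE 0.19), whereas NEFH, another neurofilament subunit, fell from 13.9 to 1.45 CPM and STMN4, a stathmin, from 2.17 to 0.194 CPM. BASP1, a growth cone protein, rose there by 3.39 (SE 0.07). In RPP-A Tubb3 and Dclk1 rose by 1.5 (SE 0.12) and 2.25 (SE 0.11), and Myt1 fell from 149.8 to 0.544 CPM and Tmem145 from 20.2 to 0.0816 CPM.

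Of 22 postsynaptic genes, 12 of 19 tested fell in the PD-L1 high fraction (63.2%, against 39.4% of all genes, median -1.04), 13 of 21 in the HLA high fraction (61.9%, against 40.2%, median -1.08) and 16 of 20 in RPP-A (against 40.6% of all genes, median -5.32). In H69M 8 of 19 fell (42.1%, against 36.6%) and 9 rose (median 0.02). GRIA1, an AMPA receptor subunit, rose in both human sorts, by 2.92 (SE 0.08) and 2.01 (SE 0.08), and GPHN, the gephyrin scaffold, by 1.43 (SE 0.13) and 2.92 (SE 0.14). GABRA5, a GABA receptor subunit, and GRIN1, an NMDA receptor subunit, fell by 1.85 (SE 0.11) and 1.75 (SE 0.14) in the PD-L1 high fraction, and SHANK2, a scaffold, fell by 2.63 (SE 0.11) in the HLA high fraction. NCAM1 is in the neuronal list and among the neuroendocrine markers above.

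Broadly expressed relatives of the same protein families fell at rates at, near or below those of all genes. Of 31 such genes, 12 of 30 tested fell (40.0%, against 39.4% of all) and 16 rose in the PD-L1 high fraction (median 0.22). In the HLA high fraction 10 of 30 fell (33.3%, against 40.2%) and 15 rose (median 0.18), and in RPP-A 10 of 25 fell (40.0%, against 40.6%) and 10 rose (median 0.05). In H69M 12 of 30 fell (40.0%, against 36.6%) and 11 rose (median -0.05). Of all genes 39.0%, 41.1%, 37.6% and 35.9% rose in these comparisons, in that order. SNAP23, the non-neuronal relative of SNAP25, rose by 2.18 (SE 0.10) in the PD-L1 high fraction, 2.77 (SE 0.09) in the HLA high fraction and 2.75 (SE 0.16) in RPP-A, while SNAP25 fell in all 3. BIN1, the relative of AMPH, rose by 2.49 (SE 0.12), 6.22 (SE 0.19) and 1.74 (SE 0.16) in the same comparisons. PICALM, the relative of SNAP91, rose by 1.62 (SE 0.05), 2.09 (SE 0.06) and 0.40 (SE 0.11).

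VAMP3 rose in both human sorts, by 1.40 (SE 0.07) and 0.97 (SE 0.08), where VAMP2 fell, and had 0.34 (SE 0.15, adjusted p = 0.0713) in RPP-A. STX4 rose by 0.95 (SE 0.08) and 0.64 (SE 0.08) where STX1A fell, and SYPL1 by 0.63 (SE 0.09) and 0.26 (SE 0.06) where SYP fell. Other relatives fell with the neuronal gene. ELAVL1 fell by 0.34 (SE 0.05), 0.64 (SE 0.06) and 0.88 (SE 0.10), less than ELAVL3 or ELAVL4 in each comparison, and STMN1 fell by 0.42 (SE 0.05), 0.82 (SE 0.06) and 2.42 (SE 0.09). Of 12 relatives paired with a neuronal gene, 8 rose and 3 fell in the PD-L1 high fraction, where 39.0% of all genes rose and 39.4% fell. In the HLA high fraction 7 rose and 3 fell, where 41.1% of all rose and 40.2% fell. Of the 10 listed in the mouse, 4 rose, 3 fell and Unc13d was not tested in RPP-A, where 37.6% of all rose and 40.6% fell. RAB3D, among the 12, belongs to the list of further presynaptic genes. The difference within a pair was not tested.

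**Figure D5:**
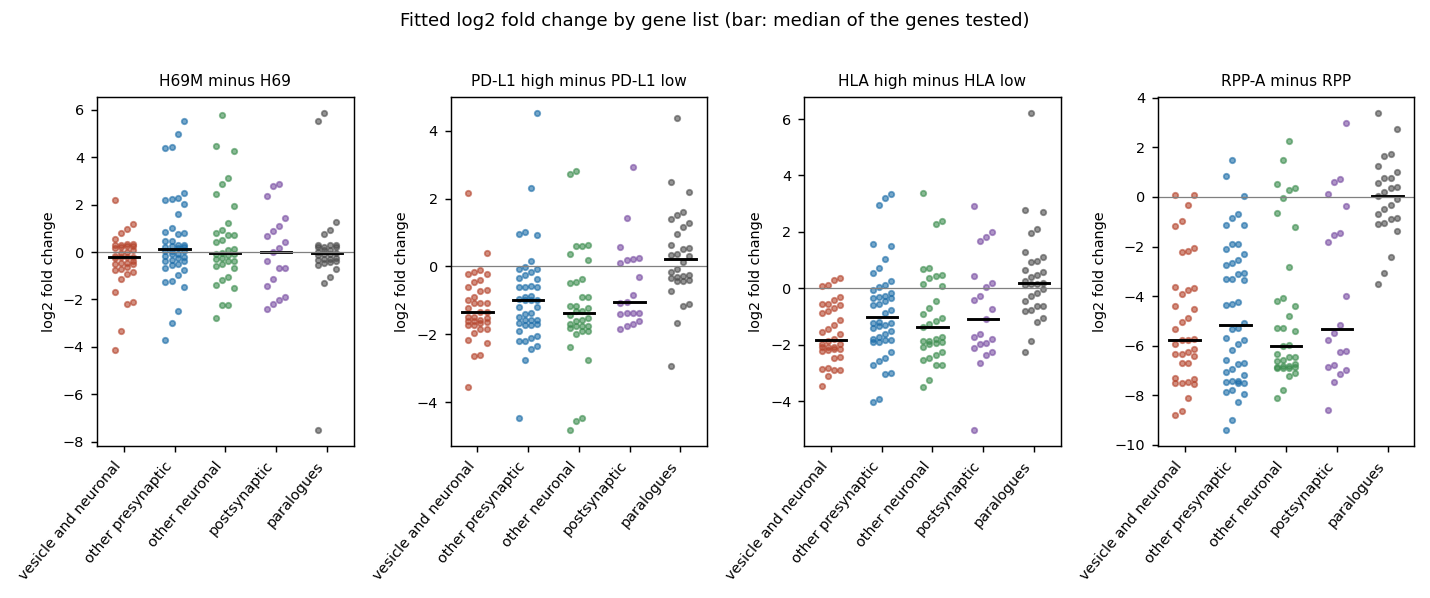
Fitted log2 fold change (y axis) of each tested gene of 5 lists (x axis) in 4 comparisons, with the median as a bar. In the sorts and in RPP-A the medians of the first 4 lists lie below 0 (-1.35, -1.0, -1.38 and -1.04 in the PD-L1 sort), and that of the broadly expressed paralogues above it (0.22).

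Exons of 7 of the 37 genes overlap those of another gene in GENCODE 29: SYP, SYN1, SYT1, SYT7, VAMP2, ELAVL3 and RUNDC3A. Since the use of strand in counting is not given in the sources used here, reads of those genes and of their neighbours cannot be told apart, and their values are uncertain to that extent.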

How the data were processed

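RNA of 22 libraries was made from 250 ng total RNA with an Illumina exome capture kit and sequenced on a NextSeq 500, per the labels' protocols. Reads were aligned with STAR 2.6.1 to hg19 or mm10, per the submitters' processing notes, and neither the counting program and annotation nor any use of strand is given in the sources used here. The deposited values are whole-number read counts per gene in 3 tables, 2 human and 1 mouse, which were never compared with each other by a test. No column was left unused (0 columns). Mouse columns name a group and not a GEO sample, and those headed RPPM were taken as RPP-A.

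Each table was filtered (edgeR filterByExpr, minimum count 10), normalized by TMM and fitted over all its groups with edgeR 4.0.16 (R 4.3.3), using the quasi-likelihood test and Benjamini-Hochberg adjustment over all genes tested, with a threshold of 0.05. The SE is the log2 fold change divided by the square root of F. CPM here is the count divided by the TMM-scaled library size in units of 1e6 counts. The H69EZ table has 2 libraries a group, so its p-values lean on spread pooled over genes and most are not printed. The labels do not say that replicate numbers mark a shared culture or day, so no pairing was used. Deviations of same-numbered human libraries from their group means had correlations of -0.164 to 0.0946. Such deviations cancel out within a small group, so these correlations cannot show that pairing is absent. The fits were also run on simulated data with far fewer changed genes than were called here, so that run does not test the normalization.

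The 37 genes, the lists and the markers were chosen with earlier results of these data known. A panel of 19 members is described by every library, with the 3 largest calls each way in a comparison whose groups did not overlap, and with members called against most others. Other lists are given by counts, medians and the 2 largest calls each way, and relatives by fixed pairs. A marker gene and a promoter motif first listed are not reported here. Promoters came from RefSeq and exon overlaps from GENCODE 29. Alternatives were DESeq2 1.42.0 (size factors and test), library totals, no filter, a minimum count of 100, only the groups compared, a replicate block, and libraries left out.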

Additional observations from a re-analysis of the deposited data

Results flagged for a closer look

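Values here are log2 fold changes that were past the test with no overlap of groups and that ran one way in one comparison and the other way in another. The comparisons set side by side stand in separate tables, and the difference between them was not tested. 13 genes rose in H69M over H69 and fell in the HLA high over the HLA low fraction, in RPP-A over RPP, or in both. How many of all genes did so was not counted.

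Among vesicle membrane and fusion proteins, SYN1 was at 0.36 in H69M, -3.10 in the HLA high fraction and -4.40 in RPP-A, and SYNGR3 at 0.29, -3.45 and -3.68. SV2A was at 0.30, -0.41 and -3.63, VAMP2 at 0.26, -1.45 and -2.06, and CADPS, the priming factor, at 0.18, -1.63 and -8.12. Among synaptotagmins, SYT5 was at 0.81, -2.48 and -6.40, and SYT11 at 1.18, -1.30 and -2.20. Of the Rab3 and active zone genes, RIMS2 was at 0.23, -0.54 and -6.71, RAB3B at 2.18 in H69M and -4.52 in RPP-A, and RIMS1 at 0.54 and -6.25. The RIMS1 call in H69M was lost without H69 replicate 1 (adjusted p = 0.125), without H69M replicate 3 (adjusted p = 0.141) and by the DESeq2 test (adjusted p = 0.105). Of the other neuronal genes, ELAVL3 was at 0.33, -2.86 and -7.47, UCHL1 at 0.25, -0.71 and -5.78, and STMN2 at 0.97 in H69M and -1.13 in the HLA high fraction.

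RIMS1 was also at 2.16 in the PD-L1 high over the PD-L1 low fraction, against -6.25 in RPP-A on 1 count. AMPH was at 0.39 in the PD-L1 high fraction, -0.29 in the HLA high fraction and -8.79 in RPP-A. The AMPH call in the HLA sort was lost without HLA low replicate 1 (-0.20, adjusted p = 0.282), without HLA high replicate 2 (-0.24, adjusted p = 0.0823) and by the DESeq2 test (-0.27, adjusted p = 0.212). DNAJC5 was at 0.38 in the HLA high fraction and -0.20 in H69M, where its call was lost without H69M replicate 1 (-0.16, adjusted p = 0.0528). STMN3 was at 0.30 in the HLA high fraction, -0.21 in H69M, -0.47 in the PD-L1 high fraction and -6.68 in RPP-A. Fitted values of Rims1 and Amph in RPP-A depend on the prior count.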

How the results depend on the processing

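The counts of members called kept within 1.5 times of the reported ones under every alternative run, except that 1 member rose in the PD-L1 high fraction at a minimum count of 100, 1 rose in RPP-A without EHK_RPP4, and 2 rose there without both EHK_RPP4 and RPPM3 (Stx1a at 0.43 and Dnajc5 at 0.18, where Gap43 fell, at -0.62). Leaving out each library in turn gave 19 to 21 falls and 12 to 13 rises in H69M, 32 to 34 and 2 to 2 between the PD-L1 fractions, 31 to 32 and 2 to 3 between the HLA fractions, 33 to 34 and 0 to 1 in RPP-A, 14 to 16 and 15 to 16 in PD-L1 low over H69, and 30 to 30 and 5 to 5 in PD-L1 high over H69. A replicate block gave the same counts of members (33 falls in the PD-L1 sort) and changed no member's call, with 5978 genes of the table falling there. The mouse columns were mapped to groups only, and EHK_RPP4 and RPPM3 have no same-numbered partner, so the mouse pair had no such fit.

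Some single calls were lost. In H69M over H69, RAB3C was lost with library totals (-0.13), by the DESeq2 test (-0.15), with no filter (-0.14), with only the groups compared (-0.15) and without H69 replicate 3 or H69M replicate 1 or 3 (-0.14, -0.14 and -0.15). SYP was lost without H69 replicate 3 or H69M replicate 3 (-0.12 and -0.15), RIMS1 by the DESeq2 test (0.56) and without H69 replicate 1 or H69M replicate 3 (0.45 and 0.44), and DNAJC5 without H69M replicate 1 (-0.16). SYNJ1 in the PD-L1 sort was lost by the DESeq2 test (-0.17) and without PD-L1 high replicate 2 (-0.19). In PD-L1 low over H69, RIMS2 was lost without H69 replicate 2 or PD-L1 low replicate 2 (0.14 and 0.10), and UNC13A with library totals (-0.14) and without PD-L1 low replicate 2 (-0.15). AMPH in the HLA sort was lost by the DESeq2 test (-0.27) and without HLA low replicate 1 or HLA high replicate 2 (-0.20 and -0.24). Stmn2 was lost with RPPM1 and RPPM2 summed (-1.10) and without EHK_RPP4 or any RPP-A library (-0.43 to -1.37).

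Other calls were gained. DNAJC5 in the PD-L1 sort passed with library totals (-0.26), with no filter (-0.16), at a minimum count of 100 (-0.16) and without PD-L1 high replicate 1 (-0.23). In PD-L1 low over H69, UCHL1 passed with library totals (0.16) and at a minimum count of 100 (0.11), PCLO without H69 replicate 2 or PD-L1 low replicate 3 (-0.22 and -0.21), and CPLX1 without PD-L1 low replicate 1 (-0.19). RAB3B passed in the HLA sort without HLA high replicate 1 (0.14), Stx1a without EHK_RPP4 (0.37) and Gap43 without RPPM3 (-0.69).

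Values near 0 changed sign, and the cause was not tested. SYNJ1 in H69M was 0.0056 with DESeq2 size factors, 0.0256 with library totals, 0.0076 by DESeq2, 0.0183 with no filter, 0.0022 at a minimum count of 100, 0.0144 with only the groups compared, and -0.0748 to 0.0612 with a library left out. RUNDC3A in H69M was 0.0157 with library totals, 0.0073 with no filter, 0.0023 with only the groups compared, and -0.0691 to 0.0019 with a library left out. RAB3A in H69M ran from -0.0138 to 0.1662. In PD-L1 low over H69, RIMS1 was 0.0235 with library totals and -0.1633 to 0.0176 with a library left out, and SYP -0.0212 to 0.1149. VAMP2 in PD-L1 high over H69 ran from -0.0657 to 0.1417. In the HLA sort RAB3B was -0.0637 and RIMS1 -0.0208 with library totals, and RIMS1 ran from -0.5007 to 1.0352. With library totals Stx1a was -0.2912 and Dnajc5 -0.3014, and Stx1a ran from -0.0219 to 0.3693. Library totals moved the median of all genes to -0.14 for PD-L1 high over low, -0.15 for HLA high over low and -0.40 for RPP-A over RPP. The largest SE of a human member was that of RIMS1 in the HLA sort (0.42, on 8 to 20 counts a library), and the SE was 0.25 for SNAP91 between the PD-L1 fractions (4 to 10 counts a library in the high fraction). The mouse table had a common biological coefficient of variation of 0.157, against 0.0540 in the H69 and 0.0450 in the H69EZ table.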
